A study of Mus musculus with 10 samples.

Results

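The chromatin of group 2 innate lymphoid cells (ILC2s) of the bone marrow (BM) was compared with that of ILC2s of the small intestine (SI) over all regions with at least 1 count, 49981 of the 50039 regions of the table. The regions are the merged ATAC-seq peaks of ILC2s from 5 tissues, namely BM, SI, large intestine (LI), lung, and pancreas, with 2 libraries per tissue. ATAC-seq inserts sequencing adapters into open chromatin, so the number of reads at a region measures its accessibility. BM and SI libraries each held 50000 sorted ILC2s of wild-type male C57BL/6 mice aged 6 weeks, and no treatment was given. A BM pool came from 16 mice and an SI pool from 10 mice, and the study calls the libraries of a tissue biological duplicates. BM cells were flushed from femur and tibia and sorted as Lin- ST2+ CD25+ on a FACSAria III. SI cells were released by EDTA, DNase I, and collagenase VIII, taken from a Percoll gradient, and sorted on a MoFlo Astrios as Lin- CD127+ CD45+ KLRG1+ cells with a Thy1 level that the labels call intermediate and the study calls low. The gate, the sorter, and the isolation thus change with the tissue, and their parts in any difference between BM and SI cannot be told apart. In bulk samples, fewer cells with an open region and a less open region in every cell cannot be told apart either.

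ILC2s are lymphocytes without antigen receptors that depend on the transcription factors GATA3 and RORα and release type 2 cytokines such as IL-5 and IL-13. They answer to alarm signals of the tissue, chiefly IL-33, whose receptor ST2 is encoded by *Il1rl1*, and IL-25, whose receptor subunit is encoded by *Il17rb*. ILC2s develop in the BM, whereas those of the intestine reside in the lamina propria, where tuft cells supply IL-25 and dietary ligands act on the aryl hydrocarbon receptor.

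Accessibility is given as CPM, counts scaled to a common library size with TMM normalization, for each library. Counts summed to between 18960309 and 26080061 in these 4 libraries. The log2 fold change is SI minus BM from edgeR's quasi-likelihood fit, with its standard error (SE) and the p-value adjusted by Benjamini and Hochberg over all 49981 regions. A region was called at an adjusted p under 0.05.

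The sequences of the regions with the widest separation of the tissues are given first. They are extremes and do not stand for all called regions. For each direction, the 3 called regions with the largest gap between the lowest library of the higher tissue and the highest library of the lower tissue are printed as the central 300 bp, on the plus strand of GRCm38 (mm10). Capitals mark matches, on either strand, to AGATAA (the GATA motif), TGANTCA (AP-1), and TGTGGT (RUNX). The first 3 were higher in SI and the last 3 were higher in BM.
Stmnd1, intergenic, chr13:46159349-46159648: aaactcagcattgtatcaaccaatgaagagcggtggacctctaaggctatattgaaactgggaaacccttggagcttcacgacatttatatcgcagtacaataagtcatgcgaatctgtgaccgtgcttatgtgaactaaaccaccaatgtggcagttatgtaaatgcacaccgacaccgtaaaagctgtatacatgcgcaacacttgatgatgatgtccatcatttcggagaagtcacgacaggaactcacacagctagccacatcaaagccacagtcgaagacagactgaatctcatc
Gm43403, intergenic, chr3:137838087-137838386: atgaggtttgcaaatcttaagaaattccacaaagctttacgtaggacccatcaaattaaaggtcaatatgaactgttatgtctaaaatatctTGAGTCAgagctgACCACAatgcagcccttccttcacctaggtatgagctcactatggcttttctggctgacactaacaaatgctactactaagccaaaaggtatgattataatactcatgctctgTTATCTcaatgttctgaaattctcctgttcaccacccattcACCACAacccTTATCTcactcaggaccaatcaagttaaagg
Gm14010, intron 1 of Morrbid, chr2:128377791-128378090: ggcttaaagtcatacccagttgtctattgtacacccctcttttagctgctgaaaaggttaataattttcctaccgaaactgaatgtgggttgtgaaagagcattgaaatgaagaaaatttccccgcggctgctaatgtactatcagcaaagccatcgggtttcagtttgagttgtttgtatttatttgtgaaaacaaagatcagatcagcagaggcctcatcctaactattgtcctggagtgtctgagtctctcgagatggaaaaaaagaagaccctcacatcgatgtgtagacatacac
Mir3620, intron 1 of Alas2, chrX:150549684-150549983: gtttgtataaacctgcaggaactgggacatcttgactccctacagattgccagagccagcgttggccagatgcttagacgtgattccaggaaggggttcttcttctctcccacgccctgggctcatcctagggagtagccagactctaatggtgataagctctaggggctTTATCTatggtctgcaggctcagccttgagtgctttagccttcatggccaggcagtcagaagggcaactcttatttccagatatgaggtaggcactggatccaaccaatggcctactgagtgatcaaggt
Gm32815, intergenic, chr14:86646728-86647027: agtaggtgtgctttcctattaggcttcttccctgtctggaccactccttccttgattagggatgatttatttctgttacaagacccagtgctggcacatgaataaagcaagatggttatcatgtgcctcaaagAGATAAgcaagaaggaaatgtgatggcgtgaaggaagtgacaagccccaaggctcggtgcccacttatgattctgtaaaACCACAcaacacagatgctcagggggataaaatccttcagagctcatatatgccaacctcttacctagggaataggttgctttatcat
Wwox, intron 8, chr8:114840102-114840401: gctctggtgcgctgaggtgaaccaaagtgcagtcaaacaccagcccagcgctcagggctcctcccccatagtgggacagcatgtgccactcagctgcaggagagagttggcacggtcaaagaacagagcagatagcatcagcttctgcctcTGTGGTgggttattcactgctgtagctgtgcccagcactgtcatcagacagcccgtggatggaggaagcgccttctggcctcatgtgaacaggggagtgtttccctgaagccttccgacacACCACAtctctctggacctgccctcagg
Each carries the name of the gene whose transcription start site (TSS) lies closest, which does not show on which gene the region acts. The *Gm43403* window held 2 GATA, 1 AP-1, and 2 RUNX matches, the *Gm32815* window 1 GATA and 1 RUNX match, the *Alas2* window 1 GATA match, and the *Wwox* window 2 RUNX matches. The *Stmnd1* and *Morrbid* windows held none of these letters.

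Of the 49981 regions, 7562 (15.1%) were more accessible in SI ILC2s and 5345 (10.7%) in BM ILC2s. The median size of the log2 fold change was 1.49 among SI-higher and 1.27 among BM-higher regions, and 27.1% and 24.8% of them changed by more than 2 on the log2 scale. SI libraries did not overlap BM libraries at 7520 of the 7562 SI-higher and at all 5345 BM-higher regions. They did not overlap at 60.4% of all tested regions and at 46.8% of those not called. A call depends on such separation, so these counts carry no test. When only library size was used for scaling, 10175 regions were SI-higher and 3338 BM-higher, so that SI-higher regions made up 75.3% of the calls against 58.6% with TMM. The counts also rested on each of the BM libraries. They were 4451 and 3097 without BM 1, and 4227 and 3200 without BM 2. None of the called regions was called in the opposite direction under any alternative.

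**Figure D1:**
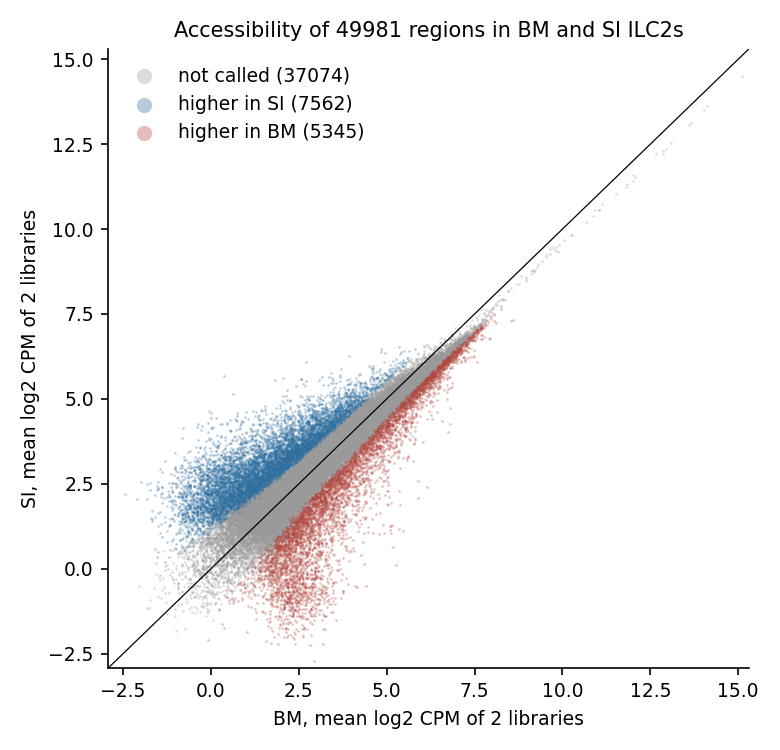
Mean log2 CPM of the 2 BM libraries (x axis) against that of the 2 SI libraries (y axis) for the 49981 tested regions, with regions higher in SI in blue (7562), higher in BM in red (5345), and not called in grey (37074). The line marks equal accessibility, and the regions of more than 8 log2 CPM lie close to or slightly below it.

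Most of the differences lay away from promoters, taken here as the stretch that begins 1000 bp before a TSS and ends 100 bp after it. Of the SI-higher regions, 59.8% were intragenic, 34.1% intergenic, and 6.06% at promoters, and of the BM-higher regions 45.7%, 36.8%, and 17.5%. Promoters made up 19.3% of all tested regions. The BM-higher promoters moved by a median of 0.67 on the log2 scale, and the SI-higher promoters by 1.18, whereas intergenic regions moved by medians of 1.42 and 1.54. The order of the promoter shares turned with library size alone, to 6.62% in BM against 7.46% in SI. The shares lay closer, at 5.81% and 4.79%, among regions that also changed by more than 1 on the log2 scale. All promoters together had a median log2 fold change of −0.19 with TMM and 0.01 with library size alone. The median distance to the nearest TSS was 18820 bp for SI-higher, 13988 bp for BM-higher, and 8217 bp for regions not called. Median GC content was 47.1%, 49.2%, and 50.8%.

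The direction of neighbouring called regions was compared along the chromosomes. Among 4754 pairs of neighbouring called regions within 20000 bp of each other, 3879 (81.6%) went the same way, where 7562 of all called regions were SI-higher and 5345 BM-higher. Of 460 genes nearest to at least 5 called regions, 156 had SI-higher regions alone, 52 had BM-higher regions alone, and 252 had both. Neighbouring regions share their locus, so these counts describe the map and carry no test.

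At the *Il1rl1* locus, 18 of 19 regions were more accessible in BM and none in SI. ST2, the receptor it encodes, was part of the BM gate and not of the SI gate. The *Il1rl1* promoter (chr1:40429061-40429563) had 22.6 and 13.0 CPM in the BM libraries and 2.84 and 3.03 CPM in the SI libraries. Both BM libraries lay above both SI libraries, with a log2 fold change of −2.59 ± 0.35 (SE, n = 2 libraries per tissue, edgeR adjusted p = 7.5e-05). The largest difference of the locus lay 10.9 kb from the TSS (chr1:40418452-40418976), where BM had 24.9 and 17.1 CPM and SI had 2.6 and 2.75 CPM (log2 fold change −2.97). LI, lung, and pancreas ILC2s were all sorted as ST2+. At the promoter, the LI libraries nevertheless had 5.67 and 7.39 CPM, below the lung libraries (15.1 and 24.1 CPM) and the pancreas libraries (27.0 and 15.2 CPM). Of the 18 BM-higher regions of the locus, 14 were lower in LI than in the mean of lung and pancreas at an adjusted p under 0.05.

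The locus of *Klrg1*, whose product was part of the SI gate, went the other way. Its promoter (chr6:122282615-122283136) had 3.57 and 2.76 CPM in BM and 12.8 and 15.7 CPM in SI, a log2 fold change of 2.17 ± 0.28 (SE, edgeR adjusted p = 6.1e-05). LI, lung, and pancreas libraries, which were not sorted by KLRG1, had 9.57 to 22.4 CPM there. BM was therefore the low tissue, with both libraries under all 8 others.

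The remaining genes of the gates differed less. *Il2ra*, which encodes CD25, had 3 SI-higher and 3 BM-higher regions among 13, and its promoter had 22.4 and 23.1 CPM in BM and 24.5 and 23.8 CPM in SI (log2 fold change 0.08 ± 0.19). The *Il2ra* region with the smallest p, 7.5 kb from the TSS, had 9.98 and 7.87 CPM in BM and 2.94 and 3.45 CPM in SI (−1.48 ± 0.30, edgeR adjusted p = 0.0016). *Il7r*, which encodes CD127, had 4 BM-higher regions of 16, and its promoter had 17.1 and 15.1 CPM in BM against 13.3 and 11.3 CPM in SI (−0.39 ± 0.22, edgeR adjusted p = 0.2). The *Il7r* region with the smallest p, in an intron of *Spef2*, had a log2 fold change of −0.77 and an adjusted p of 0.013, which was 0.083 without BM 1. The region with the smallest p at *Thy1* was higher in BM (−1.08, edgeR adjusted p = 0.011), and its p was 0.087 without BM 2. The *Ptprc* promoter, at the gene for CD45, had 17.5 and 12.2 CPM in BM and 15.3 and 11.1 CPM in SI, and these values overlapped. In *Ptprc* intron 2 (chr1:138144288-138144848), by contrast, BM had 3.62 and 3.31 CPM and SI had 8.52 and 10.2 CPM (1.43 ± 0.26, edgeR adjusted p = 0.0007).

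The ILC2 identity genes *Gata3* and *Rora* had accessible promoters in each of the 4 libraries. The *Gata3* promoter had 34.5 and 32.4 CPM in BM and 22.4 and 23.5 CPM in SI (log2 fold change −0.54 ± 0.22, edgeR adjusted p = 0.08). The *Rora* promoter had 82.0 and 87.8 CPM in BM and 48.8 and 69.9 CPM in SI (−0.51 ± 0.20, adjusted p = 0.07). Both promoters lay higher in BM without passing the threshold.

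**Figure D2:**
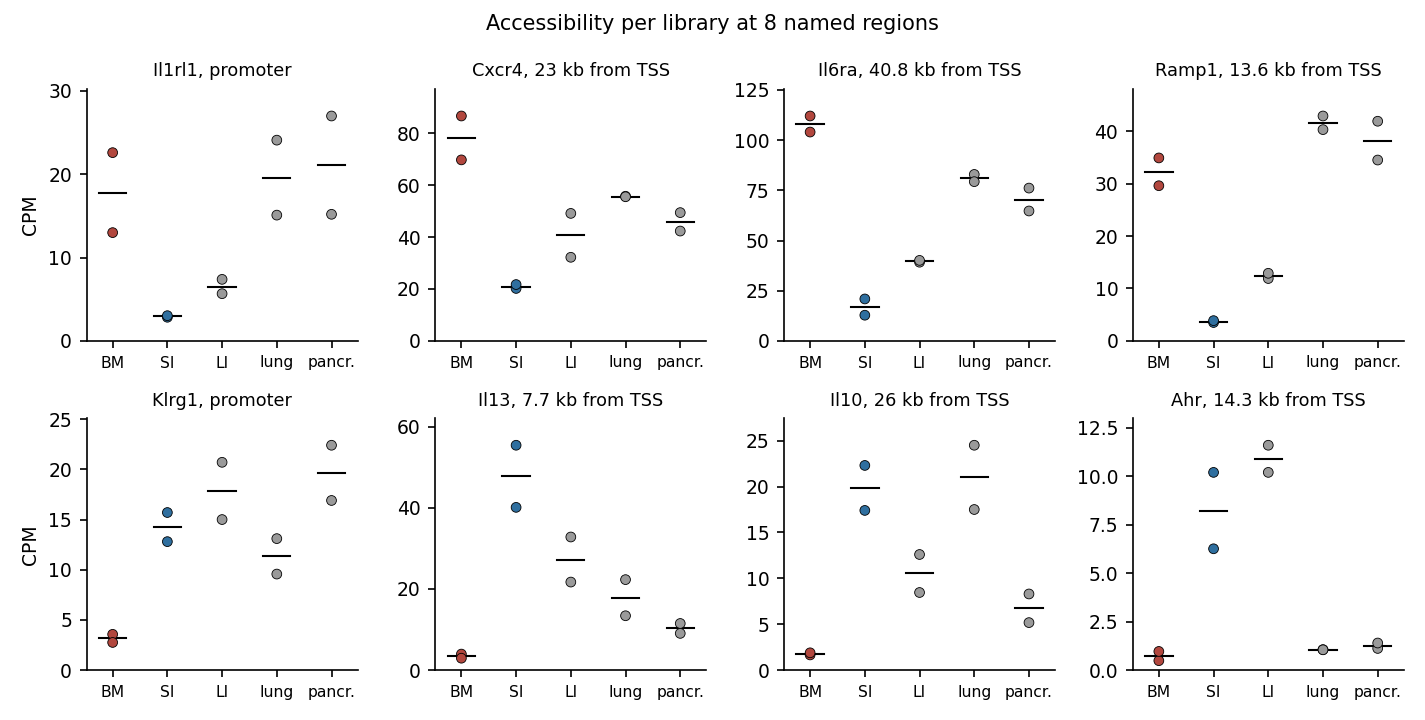
CPM of each of the 10 libraries (points) and the mean of the 2 libraries of a tissue (bars) at 8 regions, each named by the gene whose TSS lies closest, with BM in red, SI in blue, and the other tissues in grey. BM and SI libraries do not overlap at any of the 8, and LI lies between BM and SI at Il1rl1, Cxcr4, Il6ra, Ramp1, Il13, and Il10.

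Among all genes, those with the most called regions in 1 direction alone were *Gm14010*, *Atp10a*, *Trib1*, *Nckap5*, and *Tlk1* for SI, and *Il1rl1*, *Mdfic*, *Aff3*, *Tiam1*, and *Zbtb16* for BM. At *Gm14010*, 22 of 24 regions were SI-higher, with log2 fold changes from 0.84 to 4.90. They spread over chr2:128289168-128423109, where they include introns of *Morrbid*, a long noncoding RNA gene known for restraining the neighbouring death gene *Bcl2l11* in short-lived myeloid cells. In *Morrbid* intron 1 (chr2:128377626-128378256), BM had 0.587 and 0.368 CPM and SI had 16.3 and 12.5 CPM, a log2 fold change of 4.90 ± 0.42 (SE, edgeR adjusted p = 1.8e-06). This is the region whose sequence is printed above, and both SI libraries stood far above both BM libraries. At *Nckap5*, 13 of 15 regions were SI-higher, and 12 of the 13 were also higher in LI than in lung and pancreas. *Atp10a*, which encodes a lipid flippase, had 14 of 30 regions SI-higher, and 9 of the 14 were higher in LI. *Trib1*, a pseudokinase gene, and *Tlk1*, a kinase gene of chromatin assembly, had 14 of 20 and 13 of 17 regions SI-higher, with 1 region each higher in LI.

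On the BM side, *Zbtb16*, which encodes PLZF, a factor of innate lymphoid progenitors, had 11 of 14 regions BM-higher, with log2 fold changes of 1.35 to 4.02 in size. The largest lay in intron 3 (chr9:48723487-48723987), where BM had 27.2 and 13.3 CPM and SI had 1.59 and 0.941 CPM (−4.02 ± 0.44, edgeR adjusted p = 1.3e-05). The other tissues had 0.478 to 3.02 CPM there, so this region was high in the BM libraries alone. *Aff3*, of the AF4 family of transcription elongation factors, had 11 of 14 regions BM-higher. In its intron 1 (chr1:38561767-38562298), BM had 32.1 and 39.3 CPM and SI had 2.17 and 2.51 CPM (−3.92 ± 0.29, adjusted p = 7.2e-07). *Mdfic*, with 16 of 26 BM-higher regions, and *Tiam1*, which encodes an activator of the GTPase RAC and had 11 of 17, changed by medians of 1.48 and 1.21 in size.

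The regions ranked by the gap between the tissues fell into distinct sorts. On the SI side, the *Stmnd1* region (chr13:46159234-46159765), 114 kb from the TSS, had 0.93 and 1.52 CPM in BM and 38.5 and 66.7 CPM in SI, a log2 fold change of 5.41 ± 0.46 (SE, edgeR adjusted p = 1.6e-06). LI had 16.9 and 29.1 CPM there, whereas lung and pancreas had 0.662 to 3.56 CPM. The region thus stood open in both intestines. The *Gm43403* region (chr3:137837964-137838510) had 0.391 and 0.598 CPM in BM and 13.0 and 23.3 CPM in SI (5.18 ± 0.38), and here BM was the tissue apart, since pancreas had 19.5 and 24.3 CPM and lung 4.51 and 3.78 CPM. In intron 2 of *Ostf1* (chr19:18599571-18600098), BM had 0.587 and 0.736 CPM, SI 13.9 and 23.1 CPM, and the other tissues 9.19 to 20.2 CPM. Further SI-side regions lay at *Atp8a2*, *Rgs9*, *Uhrf2*, *Stard6*, and *Insr*, with log2 fold changes between 4.41 and 5.48.

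On the BM side, the *Gm32815* region (chr14:86646611-86647145) had 31.4 and 47.3 CPM in BM and 1.11 and 0.871 CPM in SI (log2 fold change −5.32 ± 0.34, edgeR adjusted p = 1.9e-07). Lung and pancreas had 24.8 to 72.7 CPM and LI 11.7 and 10.9 CPM, so SI was the tissue apart. The *Wwox* intron 8 region (chr8:114839999-114840505) had 19.5 and 22.7 CPM in BM and 0.674 and 0.557 CPM in SI (−5.10 ± 0.35), and the *Gm30712* region had 19.9 and 15.9 CPM in BM and 0.626 and 0.557 CPM in SI (−4.91 ± 0.31). The remaining BM-side regions were low in every other tissue. In intron 1 of *Alas2* (chrX:150549584-150550084), the gene for the first enzyme of heme synthesis in red cell precursors, BM had 10.2 and 5.57 CPM and SI had 0.0481 and 0.0697 CPM, which are 1 and 2 counts. In intron 1 of *Ank1* (chr8:23053939-23054439), the gene for the ankyrin of the red cell membrane, BM had 18.3 and 4.88 CPM and SI had 0.193 and 0.209 CPM. The regions at *1700063H04Rik*, *Sgk3*, *Cldn13*, *A730036I17Rik*, and *Apbb1ip* likewise had 3.77 to 14.9 CPM in BM and at most 0.289 CPM in SI. At all of these, BM 1 lay above BM 2.

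Markers of red cell precursors were therefore set beside these regions. Of 11 regions at 7 erythroid marker genes, 5 (45.5%) were BM-higher and none SI-higher, against 10.7% and 15.1% of all tested regions. The summed accessibility of the 11 regions was 128 and 75.5 CPM in BM and 57.8 and 54.5 CPM in SI. *Klf1*, *Epor*, and *Alas2* had no called region, and *Gata1* had no region. The 2 regions nearest to the *Alas2* TSS had log2 fold changes of −0.23 and −0.20. The *Alas2* intron region above lies nearest to *Mir3620* and is not among the 11. The *Hbb-bs* promoter, at a β-globin gene, had 11.2 and 7.64 CPM in BM and 0.337 and 0.557 CPM in SI (log2 fold change −4.35 ± 0.55, edgeR adjusted p = 4.9e-05), and the *Hbb-bt* promoter had 8.61 and 5.25 CPM in BM and 0.337 and 0.209 CPM in SI. The *Hba-a1* promoter had 13.5 and 6.4 CPM in BM and 3.42 and 4.21 CPM in SI, and its difference did not pass the threshold without BM 1 (−0.74, adjusted p = 0.25). Globin genes have near-identical copies, so single values there are uncertain. The only region of *Slc4a1*, a marker that is not a globin gene, was also BM-higher, with a log2 fold change of −3.18. Over all BM-higher regions, 379 (7.09%) had under 2 CPM in each of the 8 libraries of the other tissues, a limit chosen after the values were seen. In these 379, BM 1 lay above BM 2 at 94.7%, with medians of 7.68 and 3.64 CPM, whereas in the other 4966 it did so at 45.5%, with medians of 12.3 CPM in both libraries. The lineage markers named for the sort were CD3, B220, CD11b, CD11c, and FcεRI, none of them a red cell marker. The BM gate also required ST2 and CD25. The study reports that nearly all cells of this gate were ILC2s by CD45, CD127, and high GATA3. The part of red cell precursors in these regions was not tested.

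Markers of other lineages were counted in the same way, beside the 15.1% of all tested regions that were SI-higher and the 10.7% that were BM-higher. B and plasma cell markers had 4 SI-higher regions of 7 and none BM-higher, with summed accessibility of 32.2 and 24.3 CPM in BM and 74.3 and 45.0 CPM in SI. The *Mzb1* promoter had 14.2 CPM in SI 1 against 2.75 CPM in SI 2 and 0.881 and 0.92 CPM in BM, and without SI 1 its adjusted p was 0.15. The *Ebf1* promoter likewise had 15.6 CPM in SI 1 and 3.69 CPM in SI 2, and without SI 1 its log2 fold change fell from 1.72 to 0.32 (adjusted p = 0.68). At the *Cd79b* promoter, the gene for a subunit of the B cell receptor, BM had 2.69 and 1.79 CPM and SI had 8.52 and 6.79 CPM (1.77 ± 0.35, edgeR adjusted p = 0.0014), and without SI 1 the adjusted p was 0.011. *Cd79a*, *Pax5*, *Ms4a1*, *Jchain*, and *Vpreb1* had no region. T cell markers had 7 SI-higher and 4 BM-higher regions of 18, at summed levels of 241 and 218 CPM in BM and 185 and 208 CPM in SI, and the *Cd3e* promoter had 3.57 and 3.36 CPM in BM and 5.25 and 4.77 CPM in SI (0.53 ± 0.35, edgeR adjusted p = 0.29). The other 2 regions of *Cd3e* were SI-higher, as were all 3 of *Cd6*, with log2 fold changes from 1.64 to 2.63. The *Cd5* promoter had 1.71 and 1.06 CPM in BM and 4.53 and 4.18 CPM in SI (1.65 ± 0.43, edgeR adjusted p = 0.0093), and without BM 2 its log2 fold change was 1.34 with an adjusted p of 0.11. The *Cd3g* promoter had 1.32 and 1.38 CPM in BM and 3.95 and 2.86 CPM in SI (1.32 ± 0.39, edgeR adjusted p = 0.018), with adjusted p-values of 0.094, 0.088, and 0.11 without BM 1, BM 2, or SI 1. The BM-higher T cell regions were 3 of 7 at *Cd247* and the *Lat* promoter (−0.59 ± 0.19, edgeR adjusted p = 0.028), where the adjusted p was 0.082, 0.1, and 0.1 without BM 1, BM 2, or SI 1. ILC3 markers had 5 SI-higher and 1 BM-higher of 15 regions, at 82.6 and 92.4 CPM in BM and 118 and 138 CPM in SI, with *Il17a* at 2 SI-higher regions of 3. Epithelial markers had 4 SI-higher regions of 14 and none BM-higher, at summed levels of 79.8 and 72.2 CPM in BM and 105 CPM in both SI libraries. Of 27 ILC1 and NK cell regions 4 (14.8%) were BM-higher, all at *Ifng*, and 2 (7.41%) were SI-higher. Mast cell and basophil markers had 4 (22.2%) BM-higher and 1 (5.56%) SI-higher of 18, and myeloid markers 2 (18.2%) SI-higher of 11. Stem and progenitor markers had 12 (21.4%) SI-higher and 4 (7.14%) BM-higher of 56, of which *Kit* held 9 and 2. Several of these shares lie near those of all regions. The part of such cells in the results was not tested.

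Genes of known ILC2 roles were then described by list, against the 15.1% of all regions that were SI-higher and the 10.7% that were BM-higher. All regions nearest to a gene of the list were counted, and the median log2 fold change of all tested regions was 0.00.

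**Figure D3:**
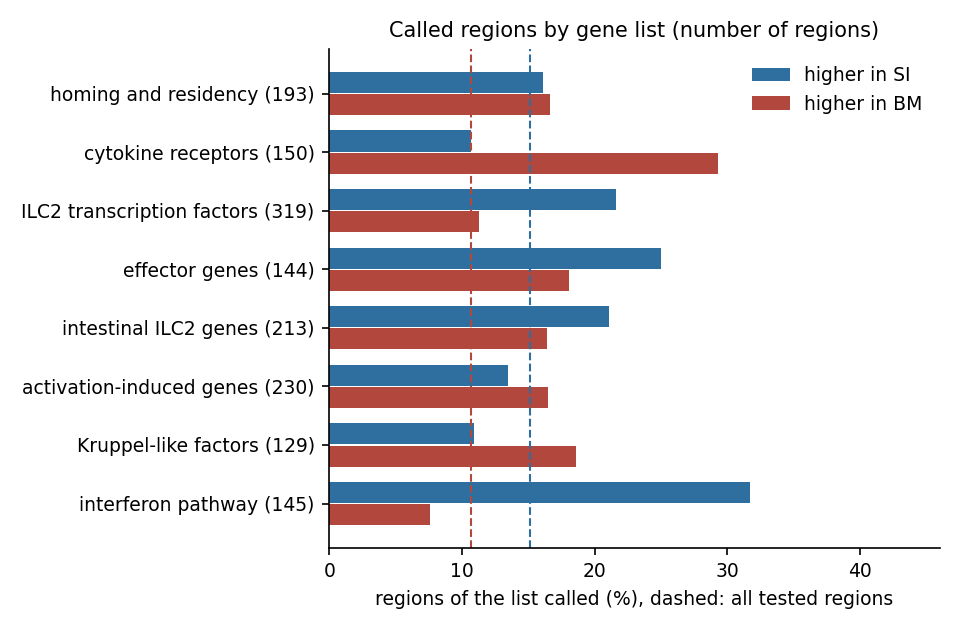
Percent of the regions of each gene list that were higher in SI (blue) or in BM (red), with the number of regions in brackets and dashed lines at the percent of all 49981 tested regions. The cytokine receptor list has the highest BM-higher share (29.3%), and the interferon list the highest SI-higher share (31.7%).

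Cytokine receptor genes as a list leaned to BM, chiefly at *Il1rl1* and related genes. Of 150 regions at 24 genes, 44 (29.3%) were BM-higher and 16 (10.7%) SI-higher, with a median log2 fold change of −0.27, and *Il1rl1* gave 18 of the 44. The related genes *Il1r1*, *Il1r2*, *Il18r1*, and *Il18rap* had 3, 2, 2, and 2 BM-higher regions and none SI-higher. The other genes of the list together had about as many regions of each direction. Over the whole list, BM-higher regions outnumbered SI-higher regions under each setting, with library size alone by 34 to 25. SI-higher regions numbered 7 without BM 1 and 8 without BM 2. *Il6ra*, an IL-6 receptor gene, had 3 of 3 regions BM-higher. In its intron 9 (chr3:89872173-89872681), BM had 104 and 112 CPM and SI had 12.8 and 20.9 CPM (−2.68 ± 0.22, edgeR adjusted p = 1.5e-06), and the remaining tissues lay between them at 39.2 to 82.9 CPM. *Il1r2*, a decoy receptor gene for IL-1, had 14.0 and 22.1 CPM in BM and 2.21 and 2.58 CPM in SI, 28.6 kb from its TSS (−2.91 ± 0.30). *Il10ra* had 2 BM-higher regions and 1 SI-higher region of 4, and its leading region was BM-higher (−2.04 ± 0.29). The only region of *Il17rb*, in exon 9 (chr14:29999037-29999541), was higher in SI, with 1.42 and 1.56 CPM in BM and 5.25 and 7.56 CPM in SI (2.1 ± 0.37, adjusted p = 0.00066). The genes of the TGF-β receptor, *Tgfbr1* and *Tgfbr2*, had 4 SI-higher regions each, against none and 2 BM-higher. *Tnfrsf25*, which encodes the receptor DR3, had 15.0 and 16.4 CPM in BM and 31.7 and 40.7 CPM in SI at its called region (1.21 ± 0.21).

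Homing and residency genes held about as many regions of each direction, 31 SI-higher (16.1%) and 32 BM-higher (16.6%) of 193. With library size alone the counts were 40 and 18, without BM 1 they were 19 and 19, and without BM 2 they were 20 and 22. *Cxcr4*, whose receptor retains cells in the BM, had 8 BM-higher regions and 1 SI-higher region of 23. At 23 kb from its TSS (chr1:128614986-128615592), BM had 86.6 and 69.7 CPM and SI had 20.2 and 21.7 CPM (log2 fold change −1.90 ± 0.22, edgeR adjusted p = 2.1e-05). *Ccr9*, which encodes a receptor for the gut chemokine CCL25, had 2 BM-higher and no SI-higher region of 4. Its region at chr9:123756705-123757209 had 29.8 and 31.2 CPM in BM and 6.98 and 8.15 CPM in SI (−2.01 ± 0.28, adjusted p = 9.6e-05). *Itgb3* had 5 BM-higher and 2 SI-higher regions of 18. On the SI side, *Itgae*, the gene for the integrin CD103, had 3 of 4 regions SI-higher, and *Ccr4* had 4 SI-higher and 1 BM-higher of 8. The *Ccr4* promoter (chr9:114496379-114496945) had 3.82 and 4.92 CPM in BM and 13.4 and 16.3 CPM in SI (1.76 ± 0.28, adjusted p = 0.00029). *Gpr55* had 2 SI-higher regions of 6, and the leading one was high in both intestines, at 13.2 and 16.4 CPM in SI and 10.5 and 14.2 CPM in LI against 4.45 and 4.10 CPM in BM.

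Transcription factor genes of the ILC2 lineage leaned to SI, with 69 (21.6%) SI-higher and 36 (11.3%) BM-higher regions of 319. Without SI 2 the counts were 49 each, without BM 1 they were 38 and 28, and without BM 2 they were 38 and 19. With library size alone they were 85 and 23. The RUNX genes had SI-higher regions alone, 9 of 30 at *Runx1* and 10 of 21 at *Runx3*. In *Runx3* intron 4 (chr4:135169019-135169634), BM had 2.50 and 2.21 CPM and SI had 10.2 and 12.9 CPM (log2 fold change 2.30 ± 0.29, edgeR adjusted p = 3.9e-05), whereas the remaining tissues had 7.13 to 15.0 CPM. BM was thus the low tissue. *Ets1* had 9 SI-higher and 1 BM-higher region of 29, *Bcl11b* 5 and none of 24, and *Ikzf2*, which encodes Helios, 6 and 1 of 22. The leading *Ikzf2* region, in intron 6 (chr1:69544151-69544660), had 1.42 and 1.98 CPM in BM and 13.3 and 26.5 CPM in SI (3.55 ± 0.43). *Rora* changed within the gene in both directions, with 9 BM-higher and 2 SI-higher regions of 29. Within its intron 2, the region at chr9:69313057-69314216 had 18.2 and 16.3 CPM in BM and 45.5 and 53.3 CPM in SI (1.52 ± 0.20), and the region at chr9:69227104-69227916 had 28.5 and 26.7 CPM in BM and 8.71 and 6.9 CPM in SI (−1.83 ± 0.25). *Gata3* had 3 BM-higher regions and 1 SI-higher region of 19.

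Effector genes differed by gene. Of 144 regions, 36 (25%) were SI-higher and 26 (18.1%) BM-higher. The counts were 39 and 15 with library size alone, 25 and 16 without either BM 1 or BM 2, and 30 each without SI 2. *Il10*, which encodes an anti-inflammatory cytokine, had 10 of 11 regions SI-higher. At 26.0 kb from its TSS (chr1:130993579-130994153), BM had 1.66 and 1.89 CPM and SI had 22.3 and 17.4 CPM (log2 fold change 3.48 ± 0.33, edgeR adjusted p = 3.6e-06), and lung reached 17.5 and 24.5 CPM. *Il13* had 2 SI-higher and 2 BM-higher regions of 9. The larger change lay 7.7 kb from its TSS (chr11:53626708-53627307), with 3.96 and 2.95 CPM in BM and 40.1 and 55.4 CPM in SI (3.79 ± 0.32, adjusted p = 1.6e-06). The remaining tissues had 9.06 to 32.8 CPM, between BM and SI. *Il5*, by contrast, had no SI-higher and 1 BM-higher region of 5. Genes of cytotoxic granules were SI-higher, with *Gzmb* at 3 of 3, *Gzma* at 2 of 2, and *Prf1* at 2 of 3 regions. *Arg1*, which encodes arginase 1, had 7 of 14 regions BM-higher and none SI-higher, and at chr10:24940022-24940529 BM had 7.88 and 8.79 CPM and SI had 1.54 and 0.592 CPM (−3.00 ± 0.43). *Calca*, which encodes the neuropeptide CGRP, had 24.2 and 23.6 CPM in BM and 2.98 and 2.37 CPM in SI, 10.0 kb from its TSS (−3.16 ± 0.28, adjusted p = 2.3e-06).

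Genes known from intestinal ILC2s had 45 (21.1%) SI-higher and 35 (16.4%) BM-higher regions of 213. The list includes genes the study picked by single-cell RNA sequencing of ILC2s from the same tissues. With library size alone the counts were 55 and 24, without BM 1 they were 29 and 25, and without SI 2 they were 39 each. *Ahr*, which encodes the aryl hydrocarbon receptor, had 6 of 21 regions SI-higher and none BM-higher, and in its intron 2 (chr12:35520418-35520927) BM had 0.489 and 0.966 CPM and SI had 6.26 and 10.2 CPM (log2 fold change 3.49 ± 0.40, edgeR adjusted p = 2.2e-05). LI had 11.6 and 10.2 CPM, and lung and pancreas at most 1.4 CPM. The promoter of *Ahrr*, which encodes the repressor of this receptor, had 2.2 and 1.29 CPM in BM and 11.9 and 16.9 CPM in SI (3.05 ± 0.33, adjusted p = 1.3e-05). Its LI libraries had 14.8 and 13.5 CPM, so both intestines were high at both genes. *Arnt*, the gene for the partner of this receptor, had 2 regions, neither of them called (log2 fold changes −0.07 and −0.05). *Epas1*, the gene for HIF-2α, had 8 of 13 regions SI-higher, and *Hic1* 5 of 8. *Ret* had 4 of 5 and *Maf* 5 of 22 regions SI-higher. *Ikzf3*, which encodes Aiolos, had 1 SI-higher and 1 BM-higher region of 7. Its SI-higher region, in intron 1, had 2.15 and 1.56 CPM in BM and 5.54 and 7.28 CPM in SI (1.79 ± 0.45, adjusted p = 0.0073), and without BM 2 the adjusted p was 0.087. The *Ikzf3* promoter had 18.6 and 19.4 CPM in BM and 19.5 and 19.9 CPM in SI (0.05 ± 0.23).

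Several receptor genes on the same list lay on the BM side. *Ramp1*, a subunit gene of the CGRP receptor, had 9 of 10 regions BM-higher. In its intron 1 (chr1:91193167-91193684), BM had 29.6 and 34.9 CPM and SI had 3.51 and 3.87 CPM (log2 fold change −3.12 ± 0.22, edgeR adjusted p = 4.3e-07). *Calcrl*, its partner in that receptor, had 2 BM-higher regions of 9. *Vipr2* had 3 regions in each direction of 12, and *Nmur1* 1 SI-higher region of 6. *Icos* had 5 BM-higher regions of 22, the strongest with 31.8 and 32.6 CPM in BM and 4.14 and 5.50 CPM in SI at 76.9 kb (−2.73 ± 0.22), and there SI was the low tissue, since the 6 libraries of LI, lung, and pancreas had 21.6 to 35.1 CPM. The *Rara* promoter, at a retinoic acid receptor gene, had 47.1 and 51.2 CPM in BM and 14.8 and 13.1 CPM in SI (−1.82 ± 0.21, adjusted p = 2.2e-05).

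Interferon pathway genes had the highest SI-higher share of the lists, 46 (31.7%) of 145 regions, against 11 (7.59%) BM-higher, with a median log2 fold change of 0.34. Without BM 1 the counts were 30 and 8, and without SI 2 they were 44 and 17. *Irf4* gave 17 of the 46, with 1 BM-higher region, among 24. At chr13:30742246-30742842, 6.69 kb from its TSS, BM had 1.08 and 1.20 CPM and SI had 9.77 and 10.6 CPM (3.16 ± 0.37, edgeR adjusted p = 2.8e-05). *Irf2* had 5 of 11 and *Irf5* 4 of 4 regions SI-higher. Among the interferon-induced genes, SI-higher regions were found at *Gbp2* (2 of 3), *Ifit3* (1 of 1), *Rsad2* (1 of 4), and *Ddx58* (1 of 3). *Mx1*, *Gbp4*, *Usp18*, and *Ifih1* had 1 BM-higher region each, and *Ifit1* and *Gbp3* had 1 in each direction. *Isg15*, *Isg20*, *Bst2*, *Xaf1*, *Mx2*, *Oas3*, *Ifit2*, and *Gbp7* had no called region. The IFIT, GBP, and MX genes belong to families of similar genes, so their values are uncertain.

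Activation-induced genes and Kruppel-like factor genes moved in both directions. Of 230 activation-induced regions, 31 (13.5%) were SI-higher and 38 (16.5%) BM-higher, but 47 and 16 with library size alone. The counts were 18 and 27 without BM 1, 21 and 20 without BM 2, and 19 and 32 without SI 1. *Nr4a3* had 3 SI-higher and *Nr4a2* 3 BM-higher regions. The leading *Nr4a2* region (chr2:57138481-57138982) had 20.1 and 20.2 CPM in BM and 1.35 and 0.732 CPM in SI (log2 fold change −4.30 ± 0.36, edgeR adjusted p = 1.5e-06), and the leading *Nr4a3* region had 0.636 and 0.828 CPM in BM and 6.55 and 7.84 CPM in SI (3.28 ± 0.36). *Batf* had 5 of 11 regions SI-higher, and *Zfp36* 4 of 4 regions BM-higher. Of 129 regions at Kruppel-like factor and SP genes, 14 (10.9%) were SI-higher and 24 (18.6%) BM-higher, but 24 and 15 with library size alone. They were 6 and 10 without BM 1, 8 and 14 without BM 2, and 12 and 15 without SI 1. *Klf12* had 6 of 15 regions BM-higher, and *Klf2* 4 of 10 with 2 more SI-higher. *Klf4* had 6 of 18 regions SI-higher, and its leading region lay 538 kb from its TSS.

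Sequence matches in the central 500 bp differed between the directions. The GATA motif is bound by GATA3 in ILC2s and by other GATA factors in red cell precursors, mast cells, and progenitors, the AP-1 motif by FOS, JUN, and BATF proteins, and the RUNX motif by RUNX factors. Outside promoters, 47.5% of 4410 BM-higher regions held a GATA match, against 25.8% of 7104 SI-higher regions and 28.3% of all 40352 tested regions there. An AP-1 match was found in 37.4% of SI-higher and 24.8% of BM-higher regions, against 26.6% of all, and a RUNX match in 55.2% and 43.0%, against 43.5%. Of the 3625 SI-higher regions where the mean of lung and pancreas lay nearer SI, 44.6% held an AP-1 and 52.2% a RUNX match. Of the 3479 where it lay nearer BM, 29.9% held an AP-1 and 58.3% a RUNX match. Over all tested regions, promoters included, 24.7% held the GATA, 23.2% the AP-1, and 39.1% the RUNX letters. Over the alternative settings, the GATA share lay between 43.8% and 50.9% of BM-higher and between 23.8% and 28.5% of SI-higher regions, and the RUNX share between 52.7% and 57.0% of SI-higher and between 41.6% and 44.6% of BM-higher regions. For AP-1 it lay between 33.3% and 43.5% of SI-higher and between 23.1% and 27.7% of BM-higher regions.

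The GATA share rose with the size of the change toward BM, and the RUNX and AP-1 shares were higher at changes of more than 1 toward SI. A GATA match was found in 56.4% (95% Wilson interval 53.6% to 59.1%) of the 1265 regions with a log2 fold change under −2, in 27.9% of those between −1 and 0, and in 27.1% of those above 2. The RUNX share was 56.8% above 2 and 39.8% under −2, and the AP-1 share 38.1% and 20.6%. Smaller differences were found for the IRF motif GAAANNGAA, in 19.4% of SI-higher and 14.1% of BM-higher regions outside promoters against 16.0% of all, and for the ROR motif TNGGTCA, in 23.2%, 18.1%, and 19.2%. The KLF and SP motif GGGNGTGG was found in 18% of both.

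**Figure D4:**
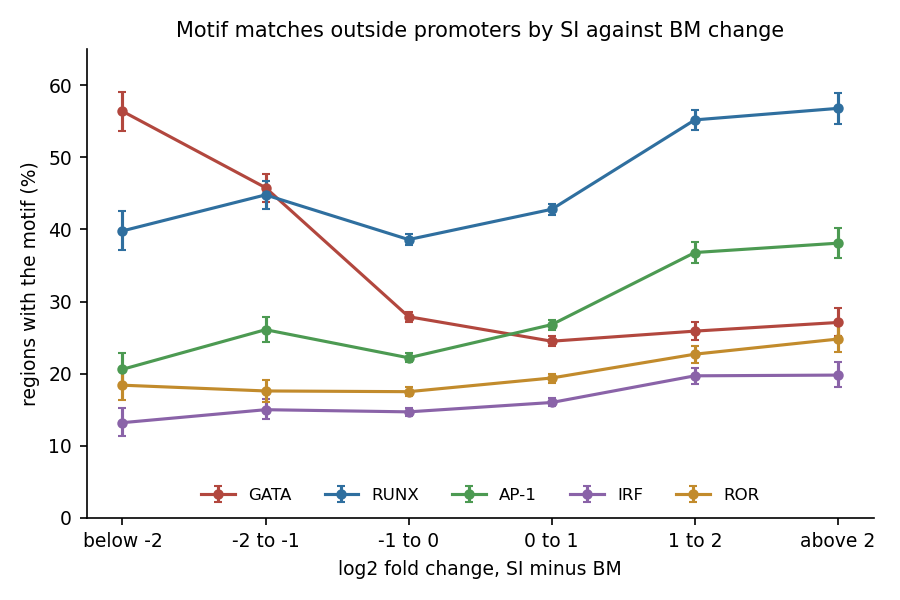
Percent of non-promoter regions (y axis) with a match to each of 5 motifs within the central 500 bp, by the log2 fold change of SI minus BM (x axis), with 95% Wilson intervals that cover counting error over regions only. GATA matches are most frequent at regions far higher in BM (56.4%), and RUNX (56.8%) and AP-1 (38.1%) matches at regions far higher in SI.

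The 379 BM-higher regions that were under 2 CPM in the 8 libraries of the other tissues held a GATA match more often than the rest. Outside promoters the share was 70.3% of 353 against 45.5% of the other 4057 BM-higher regions, so the latter still lay above the 28.3% of all regions. RUNX matches were found in 31.2% of the 353 and AP-1 matches in 15.3%. The other letters searched, on both strands, were CCGGAA for ETS, GCGTG for AHR, TTCAAAG for TCF and LEF, GGTGTGA for T-box factors, and the motifs of SMAD, CRE, and NF-kB. The ETS letters, which are frequent at promoters, were found outside them in 8.78% of SI-higher, 9.82% of BM-higher, and 11.8% of all regions. The AHR letters were found in 31.2%, 28.8%, and 33.5%, the TCF and LEF letters in 11.9%, 10.7%, and 10.4%, and the T-box letters in 9.84%, 7.78%, and 7.94%. SMAD, CRE, and NF-kB matches were found in at most 4.60% of any of these groups. A match describes letters and is not evidence of binding.

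The other tissues showed where BM and SI stood. Their libraries were not part of the SI minus BM contrast, but they entered the same fit and its estimate of the spread. At SI-higher regions the median log2 CPM was 1.45 in BM, 2.30 in lung, 2.43 in pancreas, 2.90 in LI, and 3.04 in SI. At BM-higher regions it was 3.44 in BM, 3.22 in pancreas, 3.03 in lung, 2.77 in LI, and 2.00 in SI. On a scale from BM (0) to SI (1), the median position of LI was 0.86 at SI-higher and 0.66 at BM-higher regions, and lung and pancreas lay between 0.43 and 0.56. LI was nearer to SI than to BM at 82.3% of SI-higher and 63.2% of BM-higher regions. The ends of this scale are the tissues that chose the regions.

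LI was therefore compared with the mean of lung and pancreas in the same fit, a contrast of 6 libraries that takes none from BM or SI and in which all 3 tissues had the same gate. Both contrasts use the same estimate of the spread at each region, so their calls are not independent. LI shares with SI the EDTA step and pools of 10 mice, whereas lung and pancreas had no such step and pools of 16 mice, so isolation, pool size, and tissue cannot be told apart here. Of all 49981 regions, 3024 (6.05%) were higher and 973 (1.95%) lower in LI. Among SI-higher regions, 1728 (22.9%) were higher and 37 (0.489%) lower in LI. Among BM-higher regions, 81 (1.52%) were higher and 544 (10.2%) lower. The median log2 fold change of LI against lung and pancreas was 0.50 at SI-higher, −0.20 at BM-higher, and −0.02 at regions not called.

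**Figure D5:**
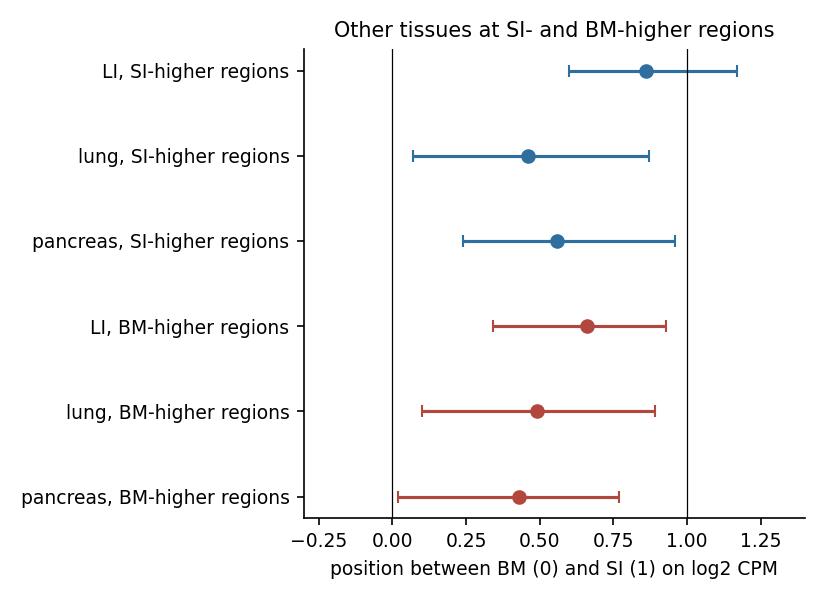
Median position (points) and interquartile range (bars) of LI, lung, and pancreas on a scale where the mean log2 CPM of BM is 0 and that of SI is 1, for 7562 SI-higher (blue) and 5345 BM-higher (red) regions. LI lies closest to SI at SI-higher regions (0.86), and the quartiles of lung and pancreas spread over most of the scale.

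Named regions showed both patterns. The *Ahr*, *Ahrr*, *Stmnd1*, and *Nckap5* regions were higher in LI than in lung and pancreas as well, with log2 fold changes of 3.25, 2.84, 3.63, and 2.78 and adjusted p-values of 1.7e-05 to 2.2e-05. At the *Il10*, *Morrbid*, and *Runx3* regions the LI contrast was −0.15, 0.43, and 0.60, with adjusted p-values from 0.13 to 0.80, although SI exceeded BM by 3.48, 4.90, and 2.30. On the BM side, the *Ramp1*, *Rara*, and *Gm32815* regions were lower in LI (−1.68, −1.64, and −2.11), whereas the *Icos* and *Calca* regions had LI contrasts of 0.49 and 0.01.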

How the data were processed

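The authors mapped reads to mm10 with Bowtie2 2.2.9, kept uniquely mapped reads, called peaks with MACS2 2.1.1, kept peaks found in both replicates, merged them over tissues with HOMER, and deposited raw read counts per merged region and library. A removal of duplicate or mitochondrial reads is not given in the sources used here. Regions without any count (58) were left out. The counts of the 10 libraries were fitted together with edgeR 4.0.16 (TMM, glmQLFit, glmQLFTest, tissue as factor), and 4 libraries entered the SI minus BM contrast. DESeq2 1.42.0, which the study used, was an alternative. log2 CPM used a prior count of 2. Classes and nearest TSSs came from curated RefSeq transcripts of GRCm38, after a check of chromosome names and ends. The edgeR step was tested on simulated data. Named regions were, per direction, the 10 with the widest gap between tissues, the leading regions of the 5 genes with the most regions of 1 direction, up to 4 genes per list and direction, and the gate and marker genes. The regions, gene lists, motifs, and tests were chosen with earlier results of these data known. P-values rest on a spread between libraries of the same tissue that was estimated from all 10 libraries, not from BM and SI alone. The intervals on motif shares cover counting error over regions only, and neighbouring regions share their locus. Reads without molecular identifiers are not independent molecules. Values of some named genes and regions are not reported here.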

Additional observations from a re-analysis of the deposited data

How the results depend on the processing

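Numbers of called regions and promoter shares moved with the processing, and the direction of calls did not: no region called in the main fit was called in the opposite direction under any alternative. BM-higher regions numbered 3338 with library size alone, which shifted the median log2 fold change of all regions to 0.20, 8379 at an unadjusted p under 0.05, and 3513 with a log2 fold change beyond 1. Leaving out 1 library gave 4227 to 7293 SI-higher and 3097 to 6327 BM-higher regions. The promoter share of BM-higher regions was 21.8% with a window of 1000 bp on both sides of the TSS, 6.62% with library size alone, 18.6% with DESeq2's size factors in edgeR, 8.53% with edgeR on 4 libraries, 22.4% with DESeq2 on 10 and 9.84% on 4 libraries, 8.38% with the trend in mean count removed, 10.5% with the trend in GC content removed, 21.6% without regions above 20000 counts (added after seeing the data), 24.8% at an unadjusted p, 5.81% with a log2 fold change beyond 1, and 11.5% to 27.2% with 1 library left out. The share of SI-higher regions was 9.53% with the wider window, 7.46% with library size alone, 4.85% with edgeR on 4 libraries, 5.12% with DESeq2 on 4 libraries, 7.76% with the GC trend removed, 7.30% at an unadjusted p, 4.79% with a log2 fold change beyond 1, and 3.90% to 9.21% with 1 library left out. The cause of these shifts was not tested. SI-higher regions also higher in LI numbered 3796 at an unadjusted p and 1113 to 1973 with 1 library left out, and BM-higher regions lower in LI numbered 1567 at an unadjusted p, 331 beyond 1, and 385 to 786 with 1 library left out.

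With the replicate number as a replicate block, 7476 regions were SI-higher and 5244 BM-higher, and the promoter share of BM-higher regions was 15.6%. The numbers are only names here, since the deviations of same-numbered BM and SI libraries correlated at 0.088 over regions. None of the named regions that were called changed direction under an alternative, although some that were not called changed sign. An exact permutation test of 2 against 2 libraries cannot go below 0.333, so single regions rest on the fit over all regions. Regions of a few counts in a tissue, such as those near *Alas2*, have wide errors. The median log2 fold change of all promoters, −0.19 with TMM and 0.01 with library size alone, is of the size of the shift between these scalings. Called promoters changed by medians of 0.67 in size among BM-higher and 1.18 among SI-higher promoters. Calls are made on these same fold changes, so larger medians among called promoters follow from the selection and carry no test.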
